A study of Mus musculus with 6 samples.

Results

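The genes of MHC class I antigen presentation examined here were 10 symbols taken from the count table by name, of 23420 symbols in all: the heavy chains H2-K1, H2-D1 and H2-T23, the light chain B2m, the peptide transporter subunits Tap1 and Tap2, the loading factor Tapbp, the immunoproteasome subunits Psmb8 and Psmb9, and the transactivator Nlrc5. All 10 were found and all 10 passed the filter on low counts. Their levels were compared between 3 cultures of mouse embryonic endothelial eEnd2 cells that stably expressed a human Integrin-β1A-GFP chimera in its wildtype form (β1-WT-GFP, cultures WT-A, WT-B and WT-C) and 3 cultures that expressed the same chimera with Lys794 changed to glutamine (β1-K794Q-GFP, cultures KQ-A, KQ-B and KQ-C), a change used to mimic acetylation. In both groups the GFP tag sat in the extracellular part of the chimera, expression was driven by a short human β-actin promoter next to a matrix attachment region of the chicken lysozyme gene, and GFP-positive cells were sorted as low and high populations, with no label saying which population a culture came from. The cells were grown to confluence in DMEM with 10% FCS and 2% antibiotics, without treatment. Total RNA was depleted of ribosomal RNA before sequencing. The human chimera has no value of its own in a table of mouse symbols, so the labels could not be checked against it.

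MHC class I molecules show peptides from inside the cell to CD8+ T cells. The proteasome, in its immune form with Psmb8 and Psmb9 in place of constitutive subunits, cuts proteins into peptides, the Tap1-Tap2 transporter carries them into the endoplasmic reticulum, Tapbp (tapasin) holds the transporter next to empty class I molecules, and a heavy chain with B2m and a bound peptide then travels to the surface. Endothelial cells carry class I constitutively, interferons raise the whole pathway through factors that include Irf1, and Nlrc5 acts on class I promoters together with the RFX, CREB/ATF and NF-Y factors.

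No member met the thresholds between β1-K794Q-GFP and β1-WT-GFP cells: 0 of 10 combined a 2-fold change or more with an unadjusted p of 0.05 or less in edgeR's quasi-likelihood test, beside 5.19% of the 11608 genes tested. For 0 of 10 was the unadjusted p 0.05 or less, beside 1180 of the 11608 genes tested. DESeq2 also gave 0 of 10 past both thresholds, beside 5.99% of the genes. At shares this small, 0 of 10 does not set the members apart from other genes. The members varied more between cultures of the same construct than between the constructs. WT-C held the lowest level of the 6 cultures for 10 of 10 members, beside 25.5% of all tested genes, and lay a median of 6.41-fold below the mean of WT-A and WT-B. KQ-B was the lowest of its group for 8 of 10, beside 41.5% of all genes. In bulk RNA, fewer cells that express a gene and less RNA per cell cannot be told apart.

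The totals ranged from 9589826 to 15287191 counts per culture, and levels are given as CPM, counts scaled to the library size after TMM normalization. WT-A and WT-B were the closest pair, with 65 of the 11608 tested genes at least 2-fold apart in CPM + 0.5, the scale of all such pair counts, although their counts still differed beyond sampling noise (chi-square of 9.97 per degree of freedom). WT-C differed by at least 2-fold from WT-A in 2701 genes and from WT-B in 2539. KQ-B stood at least 2-fold from KQ-A in 2001 genes and from KQ-C in 2562. All 15 endothelial markers were tested and 0 passed both thresholds, with summed levels between 7630 and 14400 CPM. Pecam1, Cdh5, Kdr, Flt1, Tek, Tie1, Eng, Emcn, Esam, Egfl7, Erg and Robo4 were at 31.3 CPM or more in every culture, and Vwf was at 2.41 CPM or less. Cldn5 was at 267, 252 and 4.74 CPM in β1-WT-GFP and at 17.5, 0 and 24.3 CPM in β1-K794Q-GFP cultures, where the 0 counts of KQ-B allow up to 3 counts or 0.296 CPM, and Sox17 had 3 counts in KQ-B. In WT-C 3 of the 15 lay at least 2-fold below the mean of WT-A and WT-B, Cldn5 by 54.8-fold, Erg by 2.63-fold and Egfl7 by 2.53-fold. Of 14 leukocyte markers 1, Cd68, passed the filter, while Ptprc, which defines leukocytes, had at most 4 counts in any culture and the summed level ranged from 32.8 to 105 CPM in β1-K794Q-GFP cells and from 49.0 to 89.9 CPM in β1-WT-GFP cells. Cd68 made up most of these sums, and Csf1r, a receptor of macrophages, had 153 counts in WT-C (10.7 CPM) and 4 to 9 counts in each of the other cultures. The 12 fibroblast and smooth muscle markers summed to 31.1 CPM in WT-C and to at most 3.85 CPM in each of the other cultures, and 1 of them, Pdgfra, passed the filter. The fold changes of the members are therefore given with and without WT-C, and the counts of members also without KQ-B.

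The promoters of the heavy chains, B2m and Tap1 are shown, with letters marked that occur in the elements through which the pathway is known to be switched on together. RefSeq promoters (GRCm38.p6, 250 bases before the start) were matched for 8 of the 10 members, all but Tap2 and Nlrc5. Each line below runs 5′ to 3′ on the strand of the gene and covers only the stretch with the matched letters and a few bases on each side. Capitals mark GGGATTCCC (the palindromic NF-κB site) and AANNGAAA (a core bound by IRF factors). They also mark TGACG (letters of the CREB/ATF site of an X2 box) and CCAAT (letters of the NF-Y site of a Y box). Each was matched on either strand, and in these sequences no marked motif overlapped another. They are H2-K1 at chr17:34000351-34000465 (minus strand), H2-D1 at chr17:35262916-35263053 (plus strand), H2-T23 at chr17:36032741-36032833 (minus strand), B2m at chr2:122147542-122147646 (plus strand) and Tap1 at chr17:34187326-34187482 (plus strand).
H2-K1: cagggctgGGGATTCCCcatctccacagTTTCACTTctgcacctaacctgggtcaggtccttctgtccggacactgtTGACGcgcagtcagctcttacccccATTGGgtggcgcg
H2-D1: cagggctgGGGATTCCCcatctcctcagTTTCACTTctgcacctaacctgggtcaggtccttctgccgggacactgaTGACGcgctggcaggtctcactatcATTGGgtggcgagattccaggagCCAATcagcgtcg
H2-T23: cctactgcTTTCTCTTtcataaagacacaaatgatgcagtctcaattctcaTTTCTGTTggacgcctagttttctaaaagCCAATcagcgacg
B2m: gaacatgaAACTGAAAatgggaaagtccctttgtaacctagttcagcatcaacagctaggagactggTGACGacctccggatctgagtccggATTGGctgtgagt
Tap1: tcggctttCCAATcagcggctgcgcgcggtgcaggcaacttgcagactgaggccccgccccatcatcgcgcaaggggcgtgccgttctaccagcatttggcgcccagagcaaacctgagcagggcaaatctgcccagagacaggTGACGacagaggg

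The motifs were chosen with these sequences known, and a match is a description of the letters. GGGATTCCC stood in 2 of the 8 member promoters, those of H2-K1 and H2-D1, and in 0.311% of 27025 promoters of the same length. AANNGAAA stood in 4 (H2-K1, H2-D1, H2-T23 and B2m) and in 21.6% of all promoters, TGACG in 5 and in 17.9%, and CCAAT in 7 and in 34.5%. TGACG lay shortly before CCAAT in H2-K1 (41 and 16 bases before the start), H2-D1 (101 and 76) and B2m (78 and 53). In Tap1 the order was reversed, with CCAAT at 222 and TGACG at 86, and H2-T23 had no TGACG. In those lines the capitals are not shown to be X2 or Y boxes. A 5th motif, TTCNNNGAA, the core of the interferon gamma-activated site, stood in 1 member promoter, that of Psmb8, and in 7.18% of all. The H2-K1 and H2-D1 stretches were identical at 95 of 107 bases from the NF-κB site on (88.8%). The Tap1 stretch also holds the matched stretch of the Psmb9 promoter on the opposite strand (chr17:34187331-34187482, minus strand), since the RefSeq starts lie head to head. The GENCODE gene positions given below differ from these RefSeq starts. By those positions Tap1 and Psmb9 overlap, this stretch lies inside Psmb9, and the H2-D1 and H2-T23 stretches lie inside their own genes.

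H2-K1, the classical K heavy chain (chr17:33996017-34000347, minus strand), was measured at 453, 411 and 35.5 CPM in WT-A, WT-B and WT-C and at 233, 94.2 and 152 CPM in KQ-A, KQ-B and KQ-C. Every mutant culture thus lay below the first pair of wildtype cultures and above the last one, and the groups overlapped. The log2 fold change was −0.91 (SE 0.859, 95% interval −2.98 to 1.17, edgeR adjusted p = 0.819). Without WT-C it was −1.42 (SE 0.391, edgeR unadjusted p = 0.0136, adjusted p = 0.185), which passed both thresholds.

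H2-D1, the other classical heavy chain (chr17:35262730-35267499, plus strand), was measured at 218, 252 and 80.9 CPM in β1-WT-GFP cultures and at 194, 226 and 134 CPM in β1-K794Q-GFP cultures, in the order A, B, C used throughout. WT-C lay 2.91-fold below the mean of WT-A and WT-B, the smallest such gap among the members. In the mutant cells KQ-B, the lowest for H2-K1, was here the highest. The log2 fold change was 0.01 (SE 0.444, 95% interval −1.06 to 1.08, edgeR adjusted p = 0.997), and without WT-C it turned to −0.34 (edgeR adjusted p = 0.578). The H2-K1 to H2-D1 ratio of counts within a culture was 2.08, 1.63 and 0.438 in β1-WT-GFP and 1.20, 0.416 and 1.14 in β1-K794Q-GFP cultures, lowest in KQ-B and WT-C. The group means of this log2 ratio differed by −0.46 (exact permutation test, two-sided, p = 0.5, adjusted p = 1.0 over 6 ratios).

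H2-T23 encodes the non-classical heavy chain Qa-1, a ligand of NKG2 receptors (chr17:36029773-36032855, minus strand). It was measured at 156, 184 and 35.7 CPM in β1-WT-GFP cultures and at 118, 206 and 73.3 CPM in β1-K794Q-GFP cultures. As for H2-D1, KQ-B was the highest of its group, and here it was the highest of all 6 cultures. The log2 fold change was 0.08 (SE 0.648, 95% interval −1.49 to 1.64, edgeR adjusted p = 0.981), and −0.35 without WT-C (edgeR adjusted p = 0.734). Heavy chain genes share part of their sequence. The share of 50-base windows of the GENCODE M21 transcripts found in another of 32 class I and pathway genes was 9.63% for H2-K1. It was 11.2% for H2-D1 and 5.59% for H2-T23, so the split of reads between such genes is uncertain. With all heavy chain counts summed, the log2 fold change was −0.41 (SE 0.650, edgeR adjusted p = 0.906).

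B2m, the light chain common to all class I molecules (chr2:122147686-122153083, plus strand), was the most abundant member. It was measured at 1289, 1464 and 349.6 CPM in β1-WT-GFP cultures and at 891, 459 and 628 CPM in β1-K794Q-GFP cultures. The 3 mutant cultures again fell between the wildtype pair and WT-C. The log2 fold change was −0.65 (SE 0.562, 95% interval −2.01 to 0.71, edgeR adjusted p = 0.80), and without WT-C it was −1.05 (edgeR unadjusted p = 0.0217, adjusted p = 0.220), past both thresholds. H2-K1 counts per B2m count were 0.352, 0.281 and 0.101 in β1-WT-GFP cultures and 0.261, 0.205 and 0.243 in β1-K794Q-GFP cultures. The ratio was lowest in WT-C.

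**Figure D1:**
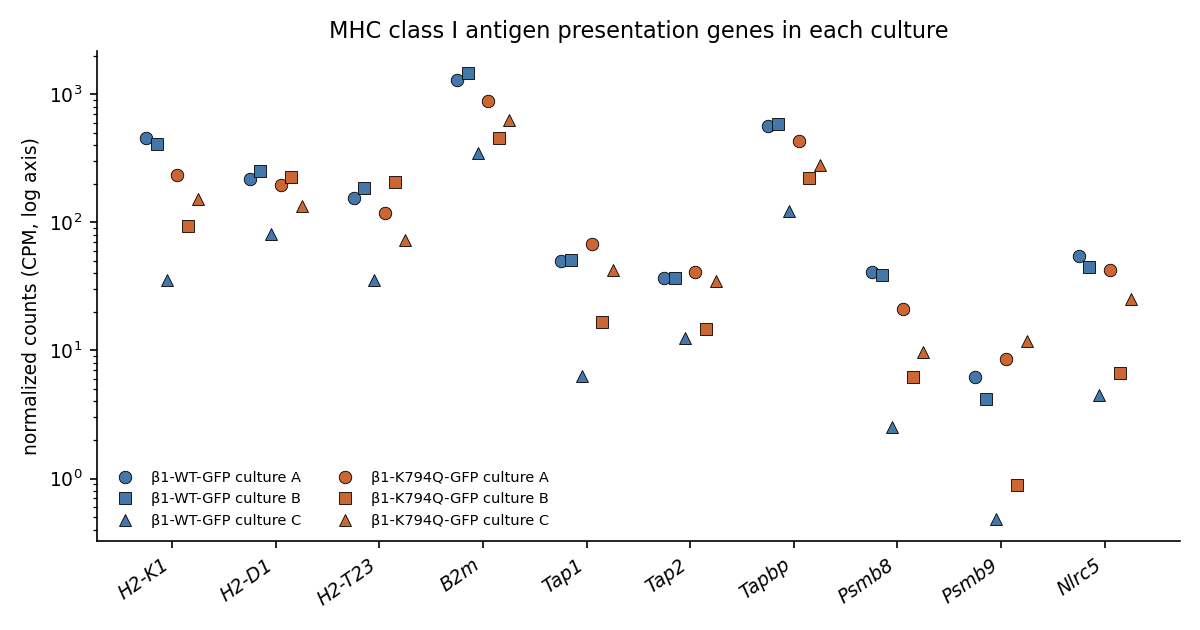
Normalized counts (CPM, log axis) of each of the 10 members in the 6 cultures. Blue symbols are β1-WT-GFP and orange symbols β1-K794Q-GFP cultures, 1 symbol per culture. The blue triangle, WT-C, is the lowest symbol for all 10 members, and the orange square, KQ-B, is the lowest orange symbol for 8 of them.

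Tap1 and Tap2 form the ATP-driven transporter of peptides. Tap1 (chr17:34187553-34197225, plus strand) was measured at 49.9, 51.2 and 6.27 CPM in β1-WT-GFP cultures and at 67.6, 16.8 and 42.8 CPM in β1-K794Q-GFP cultures. Tap2 (chr17:34203527-34216321, plus strand) was measured at 37.1, 36.6 and 12.5 CPM in β1-WT-GFP cultures and at 41.1, 14.7 and 35.1 CPM in β1-K794Q-GFP cultures. Both subunits were highest in KQ-A and low in WT-C and KQ-B. Their log2 fold changes were 0.25 for Tap1 (SE 0.821, 95% interval −1.74 to 2.23, edgeR adjusted p = 0.962) and 0.08 for Tap2 (SE 0.535, 95% interval −1.22 to 1.37, edgeR adjusted p = 0.979). Without WT-C both turned, to −0.24 for Tap1 and −0.27 for Tap2 (edgeR adjusted p = 0.864 and 0.805). Tap1 counts per Tap2 count were 1.35, 1.40 and 0.50 in β1-WT-GFP cultures and 1.64, 1.14 and 1.22 in β1-K794Q-GFP cultures, lowest in WT-C.

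Tapbp, which bridges the transporter and the heavy chain (chr17:33915899-33929292, plus strand), was measured at 567, 589 and 122 CPM in β1-WT-GFP cultures and at 432, 221 and 281 CPM in β1-K794Q-GFP cultures. Its pattern was that of B2m, with each mutant culture between the wildtype pair and WT-C. The log2 fold change was −0.45 (SE 0.601, 95% interval −1.91 to 1.00, edgeR adjusted p = 0.892). Without WT-C it was −0.88 (edgeR unadjusted p = 0.0379, adjusted p = 0.274), short of a 2-fold change.

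Psmb8 and Psmb9 encode the β5i and β1i subunits that replace Psmb5 and Psmb6 in the immunoproteasome. Psmb8 (chr17:34197721-34201454, plus strand) was measured at 40.7, 38.9 and 2.51 CPM in β1-WT-GFP cultures and at 20.9, 6.22 and 9.72 CPM in β1-K794Q-GFP cultures. WT-C lay 15.9-fold below the mean of WT-A and WT-B, the widest such gap among the members. The log2 fold change of Psmb8 was −1.15 (SE 0.963, 95% interval −3.48 to 1.17, edgeR adjusted p = 0.789), more than 2-fold in size but within the spread of the cultures, and −1.68 without WT-C (edgeR unadjusted p = 0.0202, adjusted p = 0.215).

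Psmb9 (chr17:34181987-34187764, minus strand) was the least abundant member, with 71, 42 and 7 counts in the wildtype and 89, 9 and 137 counts in the mutant cultures. In CPM these were 6.21, 4.199 and 0.487, and 8.57, 0.888 and 11.8. Unlike Psmb8, it was higher in KQ-A and KQ-C than in every wildtype culture. Its log2 fold change was 0.97 (SE 1.10, 95% interval −1.68 to 3.62, edgeR adjusted p = 0.862), and 0.46 without WT-C (edgeR adjusted p = 0.853). It was the member for which WT-A and WT-B differed most, by 1.48-fold.

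The immune subunits were also set against the constitutive subunits they replace, as a ratio of counts within each culture. These counts carry no correction for transcript length, so a ratio above 1 does not mean more of the immune subunit. Psmb5 was at 17.1 CPM in WT-C and in KQ-B and at 8.08 to 12.2 CPM elsewhere, which also lowers the Psmb8 ratio in WT-C and KQ-B. The same holds for the other ratios. Psmb6 was at 91.2 CPM in WT-C, 86.0 CPM in KQ-B and 62.7 to 76.0 CPM elsewhere. Psmb7 was at 103 CPM in WT-C, 91.3 CPM in KQ-B and 58.1 to 72.4 CPM elsewhere. Psmb8 per Psmb5 was 3.32, 3.3 and 0.146 in β1-WT-GFP cultures and 2.05, 0.364 and 1.20 in β1-K794Q-GFP cultures. Psmb9 per Psmb6 was 0.0817, 0.0595 and 0.00535 in β1-WT-GFP and 0.128, 0.0103 and 0.188 in β1-K794Q-GFP cultures. Psmb10, the β2i subunit and no member, stood to Psmb7 at 0.621, 0.653 and 0.106 in β1-WT-GFP and at 0.622, 0.213 and 0.525 in β1-K794Q-GFP cultures. All 3 ratios had their lowest value in WT-C and their second lowest in KQ-B. None passed the test between the groups (exact permutation tests, two-sided, p = 0.8, 0.5 and 0.9, adjusted p = 1.0 for each, where 3 cultures against 3 allow no p below 0.1).

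**Figure D2:**
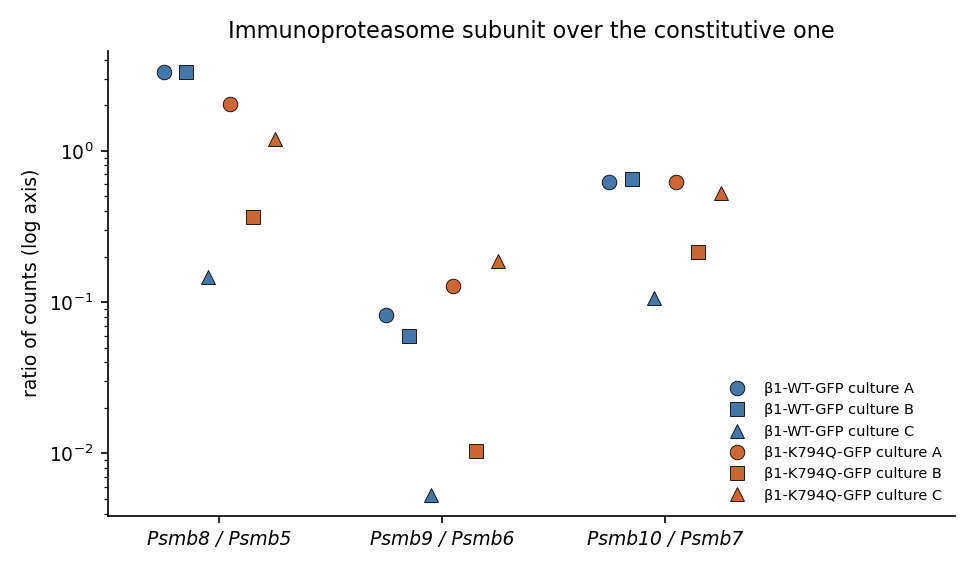
Counts of each immunoproteasome subunit divided by those of the constitutive subunit it replaces (log axis), 1 symbol per culture, blue for β1-WT-GFP and orange for β1-K794Q-GFP. For each of the 3 ratios the blue triangle, WT-C, is the lowest symbol and the orange square, KQ-B, the next, while the other cultures lie between 1.20 and 3.32 for Psmb8 over Psmb5.

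Nlrc5, the class I transactivator (chr8:94434356-94527272, plus strand), was measured at 54.8, 45.1 and 4.46 CPM in β1-WT-GFP cultures and at 42.5, 6.71 and 25.0 CPM in β1-K794Q-GFP cultures. As for H2-K1, B2m and Tapbp, each mutant culture lay between the wildtype pair and the last culture, with WT-C 11.2-fold below the mean of WT-A and WT-B. The log2 fold change was −0.49 (SE 0.966, 95% interval −2.82 to 1.85, edgeR adjusted p = 0.927). Without WT-C it was −0.997 (edgeR unadjusted p = 0.214, adjusted p = 0.537).

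Over the 10 members, 5 had a log2 fold change above and 5 below 0, with a median of −0.22 beside −0.015 over all tested genes. The adjusted p ranged from 0.789 to 0.997, none reached 0.05 where 0.181% of all genes did, and the exact permutation p of each member lay between 0.5 and 0.9. The groups overlapped for each member, while they did not overlap for 16.6% of all genes. The SD of log2(CPM + 0.5) within β1-WT-GFP cells had a median of 1.38 over the members and 0.304 over all genes, and within β1-K794Q-GFP cells 0.762 and 0.313. For 10 of 10 members the SD within β1-WT-GFP cells was larger than the difference between the group means on the same scale. The intervals of single members reached past a 2-fold change in both directions for H2-D1, H2-T23, Tap1, Tap2, Psmb9, Nlrc5, H2-K1 and Psmb8, so the fit does not show that the constructs gave the same level.

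WT-C was the lowest of the 6 cultures for 10 of 10 members and for 25.5% of all tested genes. It lay at least 2-fold below the mean of WT-A and WT-B for 10 of 10 members and for 12.7% of all genes. Over all tested genes with counts in WT-C the median of this fold was 0.996, and over the members it ranged from 2.91 for H2-D1 to 15.9 for Psmb8. KQ-B was the lowest of its group for 8 of 10 members, beside 41.5% of all genes, the exceptions being H2-D1 and H2-T23. By contrast, in CPM + 0.5 WT-A and WT-B differed by at least 2-fold in 0 of 10 members. KQ-A differed by at least 2-fold from WT-A or WT-B in 0 of 10. At the edge of that limit were Psmb9, at 8.57 CPM in KQ-A and 4.199 CPM in WT-B, and H2-K1 and Psmb8. H2-K1 and Psmb8 were lower in KQ-A, at 233 and 20.9 CPM, than in WT-A, at 453 and 40.7 CPM. The part that the marker levels of these cultures, given above, had in the difference was not tested.

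Without WT-C, 9 of 10 log2 fold changes were below 0, and 3 members, H2-K1, B2m and Psmb8, passed both thresholds, beside 8.38% of 11844 genes. As WT-C was the lowest culture for 10 of 10 members, leaving it out raised their β1-WT-GFP means. A move of the fold changes downwards was thus fixed in advance and is no separate evidence of a difference. The lowest edgeR adjusted p among these 3 was 0.185. The groups no longer overlapped for 5 members (H2-K1, B2m, Tapbp, Psmb8 and Nlrc5), beside 38.6% of all genes. Without KQ-B alone 0 members passed, beside 7.95% of 11853 genes, and the groups did not overlap for 1 member, Psmb9, beside 32.9%. Without both WT-C and KQ-B, a fit added after the data were seen, 2 members passed both thresholds, H2-K1 at −1.15 (edgeR adjusted p = 0.0389) and Psmb8 at −1.37 (edgeR adjusted p = 0.0638), where 14.2% of 11721 genes did. In that fit 8 members did not overlap between the groups, where 62.3% of all genes did not. In both fits without WT-C the β1-WT-GFP group is WT-A and WT-B, the closest pair of the series.

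**Figure D3:**
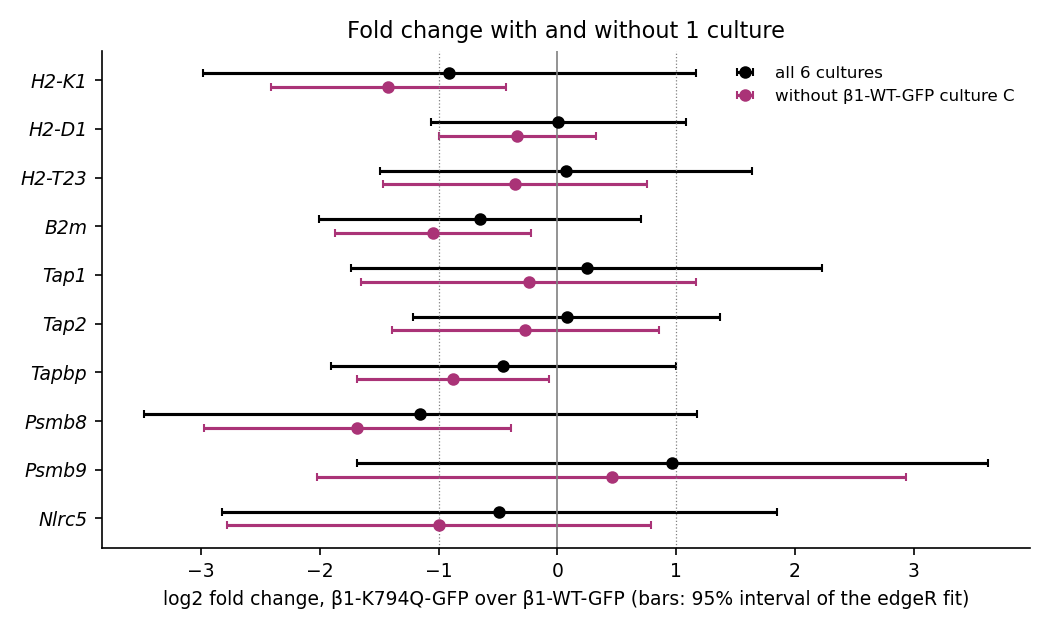
Log2 fold change of each member, β1-K794Q-GFP over β1-WT-GFP, in the edgeR fit of all 6 cultures (black) and of the 5 cultures without WT-C (purple). Bars are 95% intervals and dotted lines mark a 2-fold change. All 10 black intervals include 0, and 4 purple ones do not, those of H2-K1, B2m, Tapbp and Psmb8.

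Levels between genes were compared per kilobase of exon, as the mean CPM per kb over the 6 cultures. The annotated exon length of each gene was used, 860 bases for B2m, 3381 for Psmb8 and 3660 for Psmb9. Which transcripts the cells held was not measured, so the order below holds for these lengths only. B2m was highest at 984 CPM per kb, followed by Tapbp at 102, H2-K1 at 78.2, H2-D1 at 71.5 and H2-T23 at 44.6. The transporter, proteasome and transactivator genes were lower, with Tap2 at 7.81, Tap1 at 7.14, Psmb8 at 5.86, Nlrc5 at 3.51 and Psmb9 at 1.46 CPM per kb. The steps from B2m to Tapbp, from Tapbp to H2-K1, from H2-D1 to H2-T23 and from H2-T23 to Tap2 held in 6 of 6 cultures. H2-K1 exceeded H2-D1 in 3 of 6, and Tap1 exceeded Psmb8 in 4 of 6, so these neighbours had no fixed order. The remaining steps held in 5 of 6 cultures.

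The genes around the members in the pathway were counted next, from lists chosen with earlier results known. Of 27 other class I heavy chain symbols, 15 were at 0 counts in every culture and 6 passed the filter, of which 5 lay at least 2-fold lower in WT-C than in the mean of WT-A and WT-B. H2-Q4, the most abundant, was measured at 226, 182 and 22.98 CPM in β1-WT-GFP and at 118, 55.2 and 149 CPM in β1-K794Q-GFP cultures. H2-T24 was measured at 62.3, 75.7 and 4.11 CPM in β1-WT-GFP and at 31.8, 20.04 and 4.13 CPM in β1-K794Q-GFP cultures. Neither passed the thresholds, at log2 fold changes of −0.42 (SE 0.793) and −1.34 (SE 1.09).

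H2-Q5, annotated as a polymorphic pseudogene (chr17:35394126-35397800, plus strand), was the 1 class I heavy chain that passed both thresholds and it was lower in the mutant cells. It had 243, 164 and 15 counts in the wildtype and 3, 1 and 1 counts in the mutant cultures. Every mutant culture was thus at or under the floor of 3 counts taken for detection, and the summed counts, 422 against 5, gave a ratio of 75.8 per normalized library (exact Clopper-Pearson 95% interval 32.2 to 235, for counting error only). Its edgeR unadjusted p was 0.00247 and its adjusted p 0.153, and it passed both thresholds without each culture in turn. The adjusted p depended on the test, at 1.48e-05 in DESeq2 and 0.000275 in the edgeR likelihood ratio test. The sequence it shares with other heavy chains was not measured here, and how shared reads were counted is not known.

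Among 9 tested class I-like molecules 1 passed both thresholds, Cd1d1, which presents lipids to NKT cells. It was measured at 23.5, 26.3 and 22.98 CPM in β1-WT-GFP cultures and at 6.07, 8.49 and 14.4 CPM in β1-K794Q-GFP cultures. Here WT-C was level with WT-A and WT-B, and the groups did not overlap. The log2 fold change was −1.33 (SE 0.346, edgeR adjusted p = 0.240). The adjusted p was 0.0293 in DESeq2 and 0.0734 in the edgeR likelihood ratio test.

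Of the 14 other genes of peptide supply and loading 0 passed both thresholds, with a median log2 fold change of −0.14, and 6 lay at least 2-fold lower in WT-C than in the mean of WT-A and WT-B. These 6 included the remaining interferon-raised parts of the peptide machinery. Psmb10 was at 45.0, 43.1 and 11 CPM in β1-WT-GFP and 42.7, 19.4 and 30.5 CPM in β1-K794Q-GFP cultures. Psme1, a subunit of the PA28 proteasome activator, was at 100, 110 and 43.2 CPM in β1-WT-GFP and at 109, 56.5 and 78.3 CPM in β1-K794Q-GFP cultures. Erap1, which trims peptides in the endoplasmic reticulum, was at 142, 176 and 64.3 CPM and at 103, 64.3 and 108 CPM. The general chaperones did not share the low level: on the log2 scale WT-C stood at −0.27 for Calr, 0.20 for Canx and 0.35 for Pdia3 relative to the mean of WT-A and WT-B, and none of the 3 constitutive subunits Psmb5, Psmb6 and Psmb7 was lowest in WT-C, where their median fold of WT-A and WT-B over WT-C was 0.702.

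**Figure D4:**
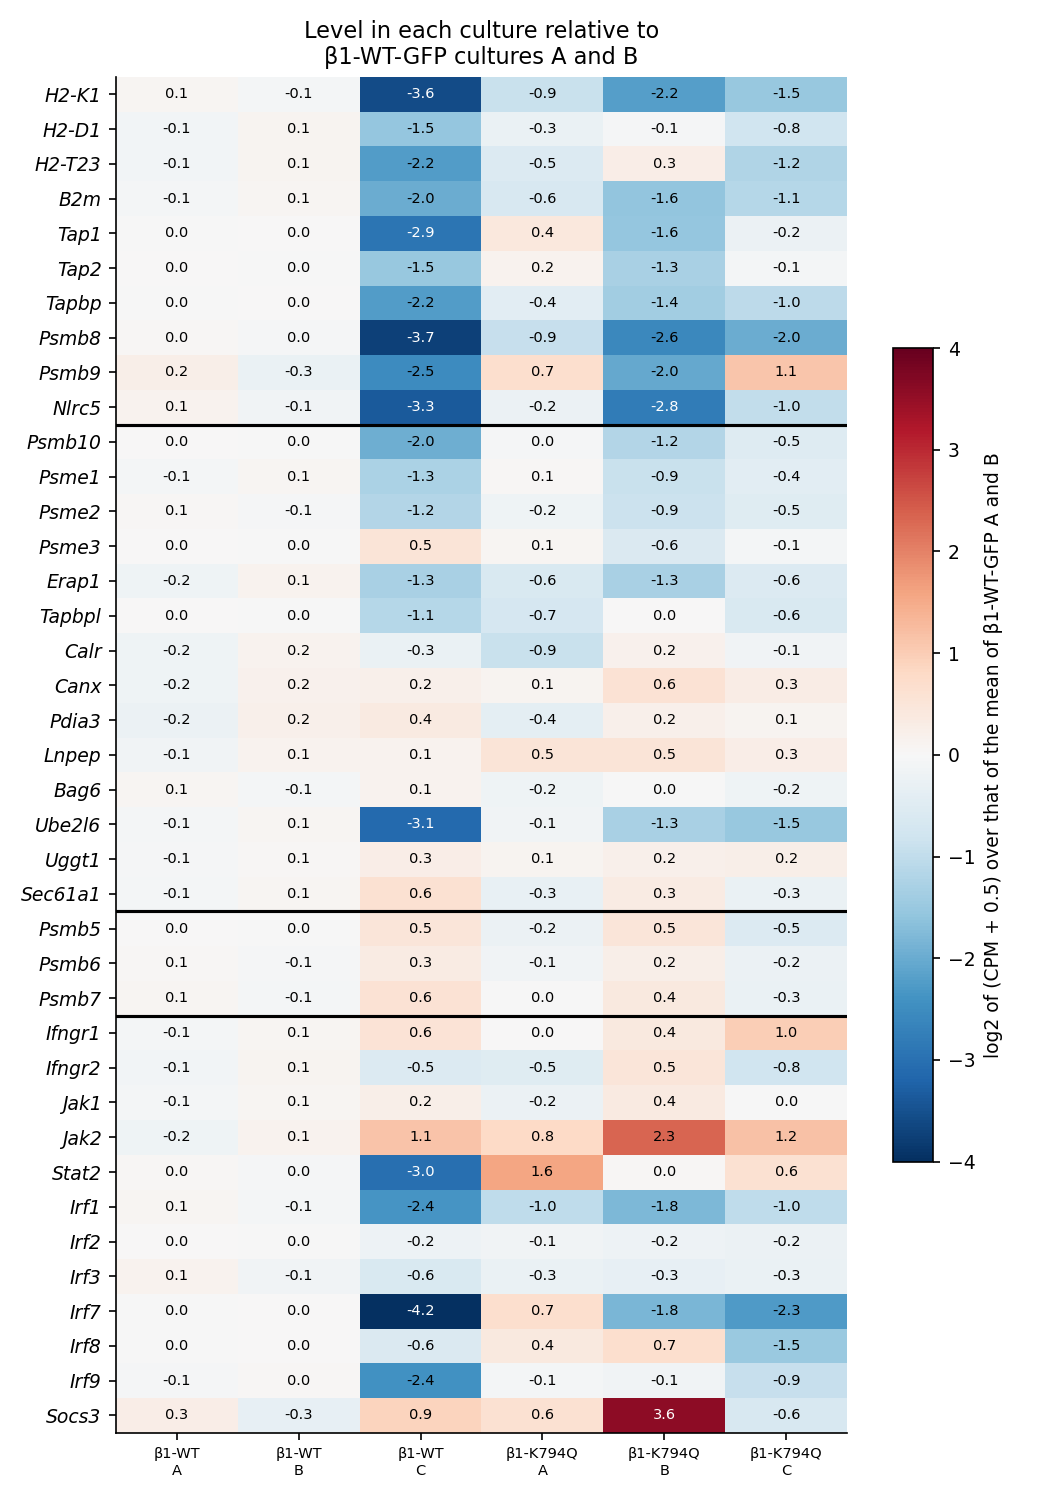
Level of the members (top block), of the other genes of peptide supply and loading, of the constitutive proteasome subunits and of tested genes from the interferon gamma receptor to the Irf factors (bottom block) in each culture, as log2 of CPM + 0.5 over that of the mean of WT-A and WT-B. Colours run from blue (lower) to red (higher). The column of WT-C is blue for all 10 members, from −3.74 for Psmb8 to −1.52 for Tap2, and above 0 for Psmb5, Psmb6 and Psmb7.

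Of 13 tested genes from the interferon gamma receptor to the Irf factors 0 passed both thresholds. The transcription factor genes Stat2, Irf1, Irf7 and Irf9, which act in interferon signalling, lay at least 2-fold lower in WT-C than in the mean of WT-A and WT-B. So did 12.7% of all tested genes. Irf2, Irf3 and Irf8 did not, with WT-C lower by 1.16-, 1.52- and 1.53-fold. For Jak1 and Jak2 WT-C was the higher, at folds of WT-A and WT-B over WT-C of 0.858 and 0.449. Stat2 was at 382, 361 and 45.5 CPM in β1-WT-GFP and at 1120, 381 and 564 CPM in β1-K794Q-GFP cultures. Irf1 was at 121, 107 and 21.8 CPM in β1-WT-GFP and at 55.6, 32.5 and 56.4 CPM in β1-K794Q-GFP cultures. Irf7 was at 258, 264 and 14.1 CPM in β1-WT-GFP and at 416, 73.7 and 54.3 CPM in β1-K794Q-GFP cultures. Of the receptor chains, Ifngr1 was at 25.0, 27.4 and 38.9 CPM and Ifngr2 at 66.9, 78.5 and 49.9 CPM in β1-WT-GFP cultures, and the ligand gene Ifng had 0 counts in each of the 6 cultures. In KQ-B the inhibitor Socs3 was at 94.5 CPM and Jak2 at 181 CPM, the highest of all cultures for both, beside 4.64 to 14.1 CPM and 31.8 to 80.7 CPM elsewhere.

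Next came the factors that bind the class I promoter elements. Of 8 tested genes of the RFX, CREB/ATF and NF-Y complexes 0 passed both thresholds and 1, Rfx5, lay at least 2-fold lower in WT-C, at 65.1, 63.7 and 28.0 CPM in β1-WT-GFP and 62.2, 29.7 and 70.2 CPM in β1-K794Q-GFP cultures. Ciita, the class II counterpart of Nlrc5, had at most 4 counts in any culture, and 9 of 11 class II presentation genes had at most 3 counts in every culture. Of 8 NF-κB genes 0 passed both thresholds. Rela was at 77.8 to 93.4 CPM in all 6 cultures, and Relb was at 55.3, 47.4 and 24.5 CPM in β1-WT-GFP and 16.5, 13.2 and 33.7 CPM in β1-K794Q-GFP cultures (log2 fold change −1.0, SE 0.459, edgeR unadjusted p = 0.0693). Of 3 tested genes for the type I interferon receptor and ligands 0 passed, and Ifnb1 had at most 1 count in a culture. The receptor chain Ifnar1 was lowest in WT-C, at 343, 362 and 122 CPM in β1-WT-GFP and at 182, 302 and 218 CPM in β1-K794Q-GFP cultures. WT-C lay below the mean of WT-A and WT-B by 1.76-fold for the kinase Tyk2 and by 1.29-fold for Ifnar2.

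As 8 of the 10 members lie on chromosome 17, the genes that lie between the class I genes of the MHC were examined. Of 102 such symbols 98 were in the table and 75 were tested, and their median log2 fold change was 0.016. In WT-C 14 of the 75 lay at least 2-fold below the mean of WT-A and WT-B, and 28 were lowest there, beside 12.7% and 25.5% of all genes. The shares of these neighbours were 18.7% and 37.3%, above those of all genes, and the median of their fold of WT-A and WT-B over WT-C was 1.17. Past both thresholds were 5 genes, of which 2 were higher and 3 lower in the mutant.

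Flot1, a membrane scaffold protein, fell from 32.2, 33.1 and 30.4 CPM in β1-WT-GFP to 12.5, 6.02 and 12.7 CPM in β1-K794Q-GFP cultures (log2 fold change −1.61, SE 0.321, edgeR adjusted p = 0.143). Its neighbour Ier3, an immediate early gene, fell from 28.3, 35.9 and 72.6 CPM to 17.9, 13.2 and 13.4 CPM (−1.62, SE 0.393, edgeR adjusted p = 0.207). Cfb, complement factor B, had 274, 303 and 45 counts in the wildtype and 13, 1 and 5 counts in the mutant (−4.98, SE 1.13, edgeR adjusted p = 0.178). These 3 genes passed both thresholds without each culture in turn. In DESeq2 the adjusted p was 0.00075 for Flot1, 0.0107 for Ier3 and 6.5e-05 for Cfb. In the edgeR likelihood ratio test it was 0.0060, 0.0232 and 0.00159. For Msh5 and Lst1, given next, the adjusted p was 0.063 and 0.389 in DESeq2 and 0.194 and 0.213 in the likelihood ratio test. Msh5, a meiotic gene of the MutS family, rose from 5.42, 5.00 and 2.72 CPM to 9.53, 10.07 and 9.89 CPM (1.17, SE 0.337, edgeR adjusted p = 0.287), and reached 0.93, short of 2-fold, without WT-C. Lst1 had 8, 2 and 3 counts in the wildtype and 13, 11 and 18 counts in the mutant (1.79, SE 0.635, edgeR adjusted p = 0.40), and its call was lost without WT-B, WT-C, KQ-A or KQ-C, at log2 fold changes between 1.497 and 2.595 over all fits with 1 culture left out.

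The genes outside the list whose levels over the 6 cultures were most like the mean of the members were sought among tested genes with a mean of at least 5 CPM. They were Iigp1 (Pearson r = 0.997), Gbp2 (0.994), Oas1b (0.994), Arl16 (0.994) and Dhx58 (0.994), over cultures that share 1 very low point, and without WT-C the same r values were 0.990, 0.992, 0.979, 0.982 and 0.980. Iigp1 and Gbp2 encode interferon-inducible GTPases, Oas1b is an OAS family gene annotated as a polymorphic pseudogene, Arl16 encodes an ARF-like GTPase, and Dhx58 encodes the RNA sensor LGP2. Iigp1 was at 193, 210 and 6.20 CPM in β1-WT-GFP and at 177, 33.5 and 63.4 CPM in β1-K794Q-GFP cultures. Gbp2 was at 123, 141 and 14.4 CPM in β1-WT-GFP and at 114, 33.9 and 56.0 CPM in β1-K794Q-GFP cultures. None of the 5 passed the thresholds between the groups.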

How the data were processed

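Per the labels and the study's methods, total RNA of 6 eEnd2 cultures, 3 per construct, was depleted of ribosomal RNA and sequenced. The authors deposited raw, unnormalized read counts for each mouse gene symbol. The submitters' processing notes name bcl2fastq 2.20.0, STAR 2.7.4a, HTSeq 0.9.1, edgeR 3.38.4 and the build mm10. The annotation, the strand setting and the handling of reads shared by several genes are not given in the sources used here. The table holds 0 further columns of per-sample values.

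In edgeR 4.0.16 (R 4.3.3), filterByExpr left 11608 genes, TMM normalized the libraries, and the constructs were compared by the two-sided quasi-likelihood F-test (common dispersion 0.186), with Benjamini-Hochberg adjustment over all tested genes. Thresholds were those of the study's methods, a 2-fold change or more with an unadjusted p of 0.05 or less. Exact permutation tests were two-sided, on log2(CPM + 0.5) for single genes and on log2 of the ratio of counts for the ratios, with a smallest possible p of 0.1. The cultures are replicates of sorted lines, so p-values measure the spread between cultures of these lines.

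The members and lists were chosen with earlier results of these data known. Named were every member, each listed gene past both thresholds, the 2 most abundant other class I heavy chains, the endothelial markers and the 5 genes most like the members. Further genes of the lists were chosen as examples after their values were seen. Gene positions and exon lengths came from GENCODE M21 (GRCm38), promoters from RefSeq. A gene of the lists is not reported here. Tests were first tested on simulated counts. Alternatives were other filters, RLE size factors, DESeq2 1.42.0, the likelihood ratio test, a replicate block, summed heavy chains, summed cultures A and B, and leaving out each culture.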

Additional observations from a re-analysis of the deposited data

How the results depend on the processing

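The number of genes past both thresholds was 603, and 916 without a filter on low counts. With 1 culture left out it ranged from 501 to 992, the highest without WT-C and 942 without KQ-B. The number of members past both thresholds was 0 under every other setting and ranged from 0 to 3 with 1 culture left out, and the number not overlapping between the groups ranged from 0 to 5, with 1 without KQ-B. Without WT-C and KQ-B together, a setting added after the data were seen, 1661 genes and 2 members passed, 8 members did not overlap, and H2-D1 and H2-T23 turned to −0.50 and −0.82 on the log2 scale. The cause was not tested. Where 10 counts were required in each culture, Psmb9 was not tested. Nor were H2-Q5, Cfb and Lst1, so their calls could not be repeated under that filter.

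The check of deviations did not decide whether culture letters paired samples, since r values this small from so few cultures neither show nor exclude it. Same-letter r was 0.109, 0.055 and 0.102. KQ-B and KQ-C correlated most with the wildtype culture of their own letter, and KQ-A with WT-B, at 0.113. The other pairs of different letters had r from −0.162 to −0.00776. With the culture letter as a replicate block 571 genes and 0 members passed, Iigp1, Arl16 and Dhx58 turned to log2 fold changes of 0.072, 0.00096 and 0.081, and Lst1 lost its call at 1.94. With heavy chain counts summed H2-D1 and H2-T23 took the value −0.41. With WT-A and WT-B summed Arl16 turned to 0.086 and Dhx58 to 0.0039.

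The log2 fold change changed sign with 1 culture left out for H2-D1 (−0.34 to 0.31), H2-T23 (−0.38 to 0.46), Tap1 (−0.25 to 0.64) and Tap2 (−0.27 to 0.42), and outside the members for H2-Q4 (−0.91 to 0.065), Arl16 (−0.30 to 0.093) and Dhx58 (−1.12 to 0.042). Over all alternatives, 130 fold changes of members kept their direction and their side of the thresholds, 14 changed sign and 5 came to pass both thresholds. The sign changes include H2-D1 and H2-T23 with heavy chain counts summed, where both took the value of the sum. All 5 that came to pass were in the fits without WT-C, with or without KQ-B. Psmb9, the member with the fewest counts, had 7 to 137 per culture. With 3 cultures per construct and WT-C far from WT-A and WT-B, the printed intervals were wide, and the fit excluded no difference inside them.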
